A study of Mus musculus with 21 samples.

Results

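Tenascin-C and 9 other matricellular and matrix glycoprotein genes were followed through 21 mouse mammary tumors. The 10 genes were chosen by name: *Tnc*, *Fbln1*, *Fbln2*, *Fn1*, *Postn*, *Sparc*, *Spp1*, *Thbs1*, *Thbs2* and *Vcan*. Each was matched by the symbol that the authors' deposited table pairs with its identifier, among 49652 gene entries, and all 10 passed the filter on low counts. The design compares 12 tumors from 8 RhoC mice with 9 tumors from 9 control mice, all female virgins. The RhoC mice were R26(RhoC/+);FloxNeoNeuNT;MMTV-CreNLST. Of the control mice, 7 were Gata4(loxP/+);FloxNeoNeuNT;MMTV-CreNLST and 2 were FloxNeoNeuNT;MMTV-CreNLST. Both control genotypes were pooled. All mice shared FloxNeoNeuNT, an allele that makes activated NeuNT from the *ErbB2* promoter once Cre has removed a stop. They also shared MMTV-CreNLST, a Cre driver specific to the mammary gland that the study regards as weaker or more patchy than comparable drivers. The R26 RhoC allele adds a wildtype *RhoC* cDNA, linked to eGFP through an IRES at Rosa26, in the cells where Cre acts. Mouse P497 gave 4 of the RhoC tumors (R-13, R-14, R-15 and R-16) and mouse N9255 gave 2 (R-6 and R-7), so these tumors are not separate animals. The label of R-18 names no mouse, and R-18 was counted as coming from a mouse of its own. The age of each tumor-bearing mouse was not analysed here.

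Matricellular proteins are secreted into the matrix and act less as scaffold than as signals, through integrins, syndecans, CD44 and other receptors. Tenascin-C is scarce in the resting adult mammary gland and is laid down in wounds and in tumor stroma, by fibroblasts and by some carcinoma cells. Fibronectin is the fibrillar glycoprotein on which tenascin-C, fibulins, periostin and thrombospondins assemble, and versican is a large hyaluronan-binding proteoglycan of the same provisional matrix.

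The members lie on 10 different chromosomes, so none of them neighbours another. RefSeq promoter windows (GRCm38.p6) were matched for 8 members, all but *Fn1* and *Thbs1*. Shown are the 250 bases before the start for *Tnc*, for the members that rose with it in the slope test described further on and whose RefSeq start lies within 27 bases of the gene's start in the deposited annotation (*Sparc* lies 3103 bases away), and for *Spp1*, a member that did not rise. The windows are *Tnc* at chr4:64047016-64047265 on the minus strand, *Thbs2* at chr17:14694263-14694512 on the minus strand, *Vcan* at chr13:89742513-89742762 on the minus strand, *Postn* at chr3:54360857-54361106 on the plus strand and *Spp1* at chr5:104434861-104435110 on the plus strand. Each is written 5′ to 3′ toward the start, and capitals mark every match to a TATA box or SMAD motif on either strand.
Tnc: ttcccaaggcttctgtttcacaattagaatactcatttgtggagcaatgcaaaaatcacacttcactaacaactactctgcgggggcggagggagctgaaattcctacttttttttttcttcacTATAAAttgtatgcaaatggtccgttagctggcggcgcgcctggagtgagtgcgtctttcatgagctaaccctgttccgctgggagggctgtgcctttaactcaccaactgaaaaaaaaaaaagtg
Thbs2: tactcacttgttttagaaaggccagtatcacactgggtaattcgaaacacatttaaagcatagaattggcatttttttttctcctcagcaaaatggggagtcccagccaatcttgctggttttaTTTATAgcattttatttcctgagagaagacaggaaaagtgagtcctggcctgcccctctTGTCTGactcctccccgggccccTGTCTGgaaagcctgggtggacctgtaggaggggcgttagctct
Vcan: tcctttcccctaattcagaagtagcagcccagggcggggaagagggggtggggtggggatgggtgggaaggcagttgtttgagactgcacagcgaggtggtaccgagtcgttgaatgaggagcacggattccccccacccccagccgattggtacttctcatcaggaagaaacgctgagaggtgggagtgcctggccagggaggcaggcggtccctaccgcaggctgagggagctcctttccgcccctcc
Postn: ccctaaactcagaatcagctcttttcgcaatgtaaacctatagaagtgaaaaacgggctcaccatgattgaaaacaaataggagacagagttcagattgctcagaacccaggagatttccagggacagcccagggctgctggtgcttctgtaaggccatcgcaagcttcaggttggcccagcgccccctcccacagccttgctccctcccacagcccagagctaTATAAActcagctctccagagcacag
Spp1: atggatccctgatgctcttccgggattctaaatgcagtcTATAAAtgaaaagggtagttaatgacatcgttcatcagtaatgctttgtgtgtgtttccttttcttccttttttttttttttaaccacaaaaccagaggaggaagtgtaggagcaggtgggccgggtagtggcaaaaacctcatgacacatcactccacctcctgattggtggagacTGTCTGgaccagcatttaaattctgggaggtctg
In all, 5 motifs were searched on both strands: the TATA box (TATAAA), AP-1 (TGANTCA), TEAD (GGAATG), SMAD (CAGACA) and the CArG box. No matches overlapped. The TATA box letters were present in 4 of the 8 windows, those of *Tnc*, *Thbs2*, *Postn* and *Spp1*, against 12.4% of 32851 windows of the same length. In *Postn* the match begins 26 bases before the start, and in *Tnc* and *Thbs2* it begins 126 bases before it. The SMAD letters were present in 4 windows (*Fbln1*, *Sparc*, *Spp1* and *Thbs2*), against 17.1% of all windows, and *Thbs2* held 2 matches. AP-1, TEAD and CArG box letters were in 0 of the 8 windows, against 6.75%, 12.6% and 1.47% of all windows. Members that rose with *Tnc* and a member that did not thus both held TATA and SMAD letters, and these matches are a description of the sequence only.

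Control tumors held 47552423 to 100741339 counted reads and RhoC tumors 47309780 to 85326903, with 6.56% to 16.1% of them in the 20 top genes of a tumor. *Rhoc*, the gene carried by the transgene, reached 172 CPM (reads per 1e6, scaled by TMM library size) in control tumors, median 50.7, and ranged from 22.8 to 148 in RhoC tumors, median 88.2. The cohorts overlapped (log2 fold change 0.19, SE 0.34, edgeR quasi-likelihood adjusted p = 0.774), so the level of *Rhoc* does not check the cohort labels. The 7 luminal epithelium markers were present in each tumor, with a summed level of 1567 to 5935 CPM in controls and 1232 to 3529 CPM in RhoC tumors. Skeletal muscle markers were summed at 4238 CPM in control N-17, 730 in R-10 and 344 in R-1, with N-3 between the latter, and at or below 105 CPM in the other tumors.

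Per length, *Spp1*, which encodes osteopontin, was the most abundant member in both cohorts. Its median in the authors' FPKM was 1499 in control and 2166 in RhoC tumors. *Sparc*, encoding a collagen-binding counter-adhesive protein, followed in controls at a median of 272 FPKM, and in RhoC tumors *Thbs1* was second at 311 FPKM. *Tnc* ranked 7 of 10 in controls, at a median of 36.8 FPKM, and 4 of 10 in RhoC tumors, at 198 FPKM. *Fbln1* was the least abundant member in both cohorts, at 8.28 and 12.3 FPKM. Neighbours in this order mostly do not separate, since every member ranged at least 3.58-fold in CPM among the tumors of either cohort.

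**Figure D1:**
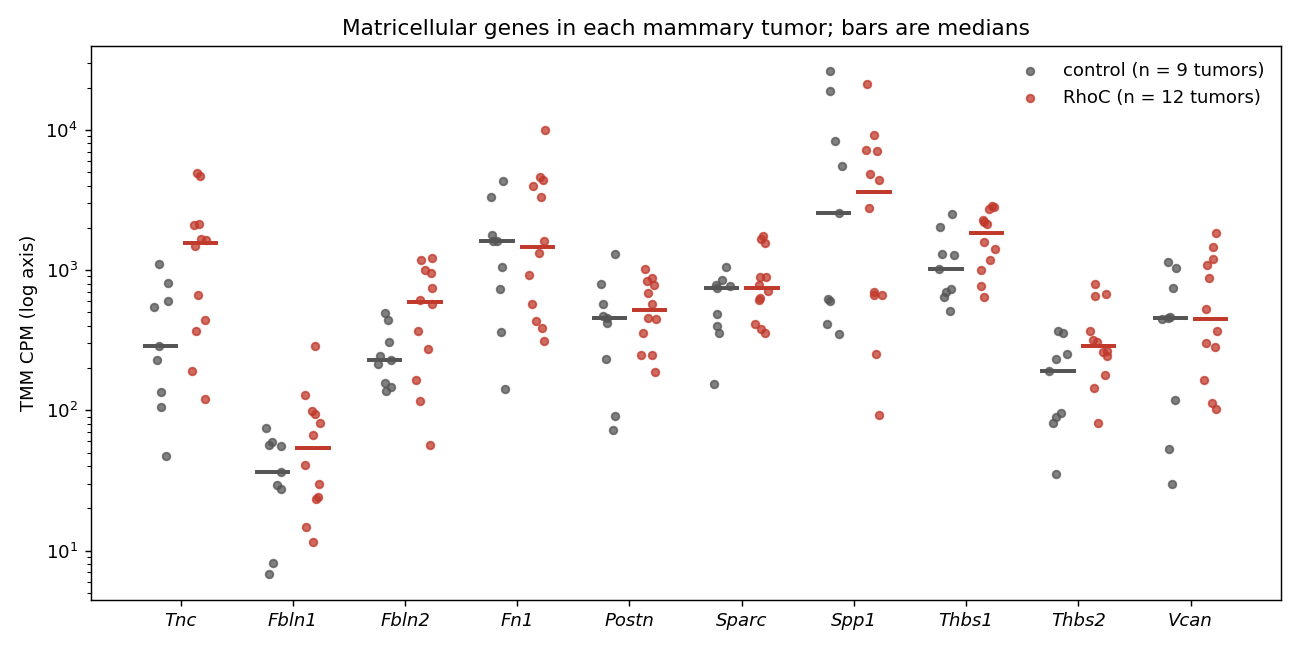
TMM CPM of each member (log axis) in each of the 9 control and 12 RhoC tumors; bars are medians. The cohorts overlap for all 10 members, and *Tnc* medians are 286 CPM in control and 1561 CPM in RhoC tumors.

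The first comparison asks whether the members differ between RhoC and control tumors. *Tnc* was the member with the largest difference: control tumors ranged from 47.1 CPM in N-9 to 1102 in N-15, median 286, and RhoC tumors from 121 in R-21 to 4889 in R-12, median 1561. Of the 12 RhoC tumors, 7 were above the highest control and 10 were above the control median, while R-1 (190 CPM) and R-21 were below it. The log2 fold change of 1.98 (SE 0.66) had an unadjusted p of 0.00643 and did not pass the test over all genes (edgeR quasi-likelihood adjusted p = 0.120). DESeq2 called *Tnc* (log2 fold change 1.98, adjusted p = 0.0232), a tool by which 6.24% of all tested genes were called, and the adjusted p over the other alternatives and left-out tumors ran from 0.0726 to 0.420. With counts summed per mouse the fold change was 1.68 (SE 0.72, edgeR adjusted p = 0.349), and without the 4 tumors of mouse P497 it was 1.54 (SE 0.72, edgeR adjusted p = 0.420).

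Of the members, 0 of 10 were called between the cohorts by edgeR, where 0.223% of 19315 tested genes were called. At an unadjusted p under 0.05 there were 3 members, *Tnc*, *Fbln2* and *Thbs2*, all higher in RhoC tumors, against 20.5% of all genes in either direction. This count takes tumors of 1 mouse as separate samples, and with counts summed per mouse *Tnc* alone stayed under 0.05 (unadjusted edgeR p = 0.0307). The fitted change was positive for 9 of 10 members against 49.6% of all genes, with a median of 0.63 on the log2 scale against -0.01. The members are correlated with each other (values further on), so their shared sign is not 10 separate observations.

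Fibulins bridge elastic fibers, basement membranes and proteoglycans. *Fbln2* ranged from 138 to 495 CPM in controls, median 227, and from 56.4 CPM in R-1 to 1225 in R-13, median 589, in RhoC tumors. The RhoC range exceeded the control range at both ends, with 7 RhoC tumors above the highest control. The log2 fold change was 1.20 (SE 0.45, edgeR adjusted p = 0.157). It was 0.63 (SE 0.46) with counts summed per mouse and 0.56 (SE 0.45) without the 4 tumors of P497, with edgeR adjusted p = 0.565 and 0.629. *Fbln1*, a binder of fibronectin and basement membranes, ranged from 6.76 to 74.5 CPM in controls, median 36.1, and from 11.6 to 289 in RhoC tumors, median 53.9. Its log2 fold change was 0.93 (SE 0.54, edgeR adjusted p = 0.328) and fell to 0.50 without R-10, the tumor at 289 CPM.

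Thrombospondins are large secreted glycoproteins that bind CD36 and CD47, inhibit angiogenesis and, in the case of *Thbs1*, activate latent TGF-beta. *Thbs2* ranged from 35.0 to 370 CPM in controls, median 192, and from 80.7 to 798 in RhoC tumors, median 285, with 3 RhoC tumors above the highest control (R-6, R-13 and R-15). Its log2 fold change was 0.91 (SE 0.42, edgeR adjusted p = 0.229), and 0.54 (SE 0.43, edgeR adjusted p = 0.596) with counts summed per mouse. *Thbs1* ranged from 511 to 2491 CPM in controls, median 1012, and from 640 to 2880 in RhoC tumors, median 1846. The control with the most *Thbs1*, N-9, was the control with the least *Tnc*. The log2 fold change of *Thbs1* was 0.59 (SE 0.33, edgeR adjusted p = 0.310).

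The other 5 members had cohort differences of 0.67 or less on the log2 scale in either direction. *Fn1* ranged from 141 to 4323 CPM in controls and from 311 to 9888 in RhoC tumors, with medians of 1612 and 1462 (log2 fold change 0.67, SE 0.64, edgeR adjusted p = 0.560). Without R-12, at 9888 CPM, its fold change was 0.26. *Sparc* had medians of 739 and 747 CPM, and its log2 fold change was 0.51 (SE 0.34). *Vcan* had medians of 457 and 449 CPM, and its log2 fold change was 0.48 (SE 0.61), which ran from 0.24 without R-10 to 0.73 without N-15. *Postn*, encoding a collagen-cross-linking matricellular protein of activated fibroblasts, had medians of 455 and 515 CPM, with a log2 fold change of 0.19 (SE 0.42) and an interval from -0.63 to 1.02. Leaving out single tumors of either cohort moved it, from 0.04 without N-9, 0.05 without N-1, 0.08 without R-2, 0.10 without N-8 and 0.12 without R-10 to 0.31 without N-3 and 0.52 without N-4, and it was 0.44 by voom with mouse as a random effect. For *Fn1*, *Sparc* and *Vcan* the medians of the cohorts were close, and 3 RhoC tumors of each lay above the highest control. Their fitted changes were positive with wide intervals, from -0.57 to 1.92, -0.16 to 1.18 and -0.72 to 1.67, so no difference of means is shown.

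*Spp1*, encoding an integrin- and CD44-binding phosphoprotein made by macrophages and carcinoma cells, varied most. It ranged from 347 CPM in N-15 to 26204 in N-4 in controls and from 93.2 in R-1 to 21108 in R-15 in RhoC tumors, a 226-fold span among RhoC tumors. Its medians were 2532 and 3589 CPM, and its log2 fold change was -0.52 (SE 0.87, edgeR adjusted p = 0.759), with an interval from -2.23 to 1.19. The sign of this change turned when N-4 was left out (0.06), and the change was -0.18 without N-6, -1.04 without R-15 and -1.16 without the 4 tumors of P497.

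**Figure D2:**
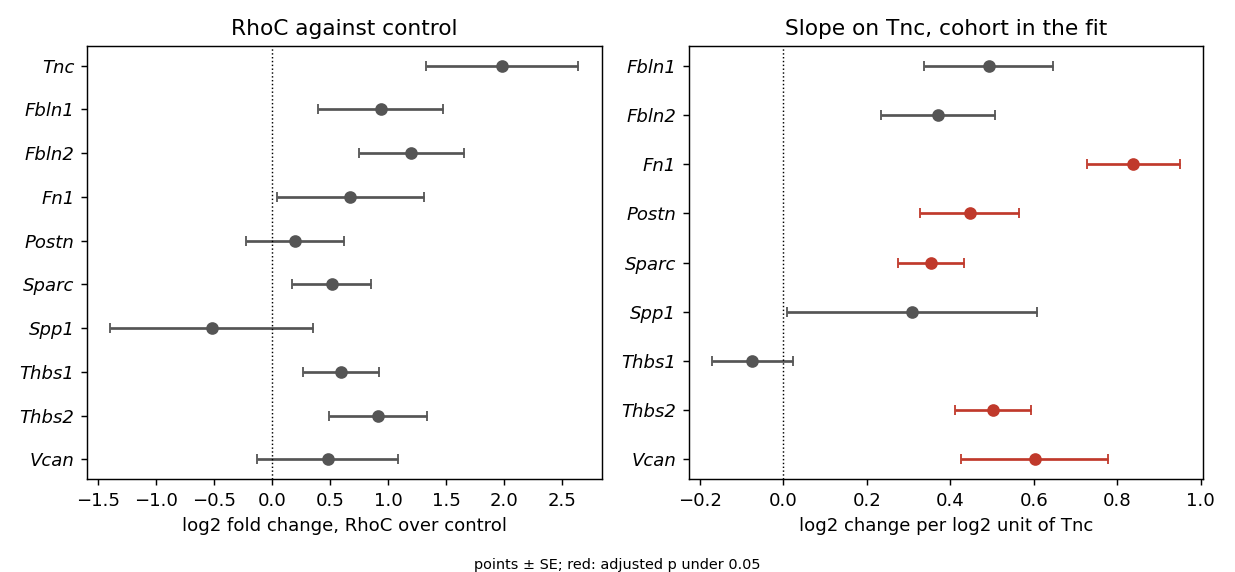
Left, log2 fold change of each member between RhoC and control tumors; right, log2 change of each member per log2 unit of *Tnc* with cohort in the fit. Points are edgeR estimates, bars are SE, and red marks an adjusted p under 0.05: 0 of 10 members on the left, 5 of 9 on the right.

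The second comparison asks which members follow *Tnc* from tumor to tumor. The edgeR fit gave each gene a slope on the log2 CPM of *Tnc* with cohort as a covariate, so a slope of 1 is a doubling for each doubling of *Tnc* among tumors of the same cohort. Of the 9 other members, 5 rose with *Tnc*: *Fn1*, *Thbs2*, *Sparc*, *Postn* and *Vcan*. Over all genes, 3.17% of 19314 rose. The median slope was 0.45 for the members and -0.00 for all genes, and 0 members fell.

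*Fn1* had the steepest slope, 0.84 (SE 0.11, edgeR adjusted p = 0.00104), and ranked 4 by p among all genes tested. In N-9, the tumor with the least *Tnc* (47.1 CPM), *Fn1* was at 141 CPM, and in R-12, with the most *Tnc* (4889 CPM), *Fn1* was at 9888 CPM. These tumors were also the lowest and the highest of all 21 for *Fn1*. *Thbs2* had a slope of 0.50 (SE 0.09, edgeR adjusted p = 0.00434). It was lowest in N-9 and highest in R-15, which held 2120 CPM of *Tnc*. *Sparc* had a slope of 0.35 (SE 0.08, edgeR adjusted p = 0.0118), *Postn* 0.45 (SE 0.12, edgeR adjusted p = 0.0280) and *Vcan* 0.60 (SE 0.18, edgeR adjusted p = 0.0427).

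Both fibulins had positive slopes that did not pass the test, 0.49 for *Fbln1* (SE 0.16, edgeR adjusted p = 0.0590) and 0.37 for *Fbln2* (SE 0.14, edgeR adjusted p = 0.103). DESeq2 called both, and so 7 of 9 members, where 7.02% of all genes rose by that tool. *Spp1* had a slope of 0.31 (SE 0.30, interval -0.28 to 0.89), which was 0.18 without R-15, 0.47 without R-21 and 0.11 by voom with mouse as a random effect. *Thbs1* had a slope of -0.07 (SE 0.10, interval -0.26 to 0.12), so a rise as steep as that of *Fn1* or *Thbs2* lies outside its interval. Its sign turned with the fibroblast marker term (0.07), in the fit on *Tnc* without cohort (0.02) and without N-9 (0.01). The paralogs *Thbs1* and *Thbs2* thus had slopes whose intervals did not overlap, -0.26 to 0.12 and 0.32 to 0.68.

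*Fn1* and *Thbs2* passed under all 12 alternatives and with each of the 21 tumors left out. The other calls were lost under some of them: *Sparc* passed in 9 of 12 alternatives and 21 of 21 left-out fits, *Postn* in 8 and 17, and *Vcan* in 6 and 8. With counts summed per mouse, which treats the tumors of a mouse as 1 sample, 3 members passed (*Fn1*, *Thbs2* and *Vcan*), where 0.895% of all genes rose. With mouse as a random effect (voom), 5 members passed, where 2.97% of all genes rose. *Vcan* was then at a voom adjusted p of 0.0625, and *Sparc*, *Postn* and *Fbln1* passed beside *Fn1* and *Thbs2*. Without the 4 tumors of P497, *Fn1* and *Thbs2* passed, where 0.594% of all genes rose. In the fits without P497 and with summed counts, the slopes of members whose call was lost were close to or above those in all tumors. *Sparc* was at 0.36, *Postn* at 0.53 and *Vcan* at 0.71 without P497, and with summed counts *Sparc* was at 0.35 and *Postn* at 0.51. Leaving out N-9, R-1, R-18 or R-21 left 3 members in each case, where 2.98%, 2.05%, 1.87% and 1.59% of all genes rose. *Postn* lost its call with slopes of 0.37, 0.44, 0.43 and 0.43, and *Vcan* with 0.53, 0.58, 0.57 and 0.70. For all 5 members that rose, leaving out N-9 gave the lowest slope of the left-out fits, with *Fn1* at 0.80, *Thbs2* at 0.45 and *Sparc* at 0.31.

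**Figure D3:**
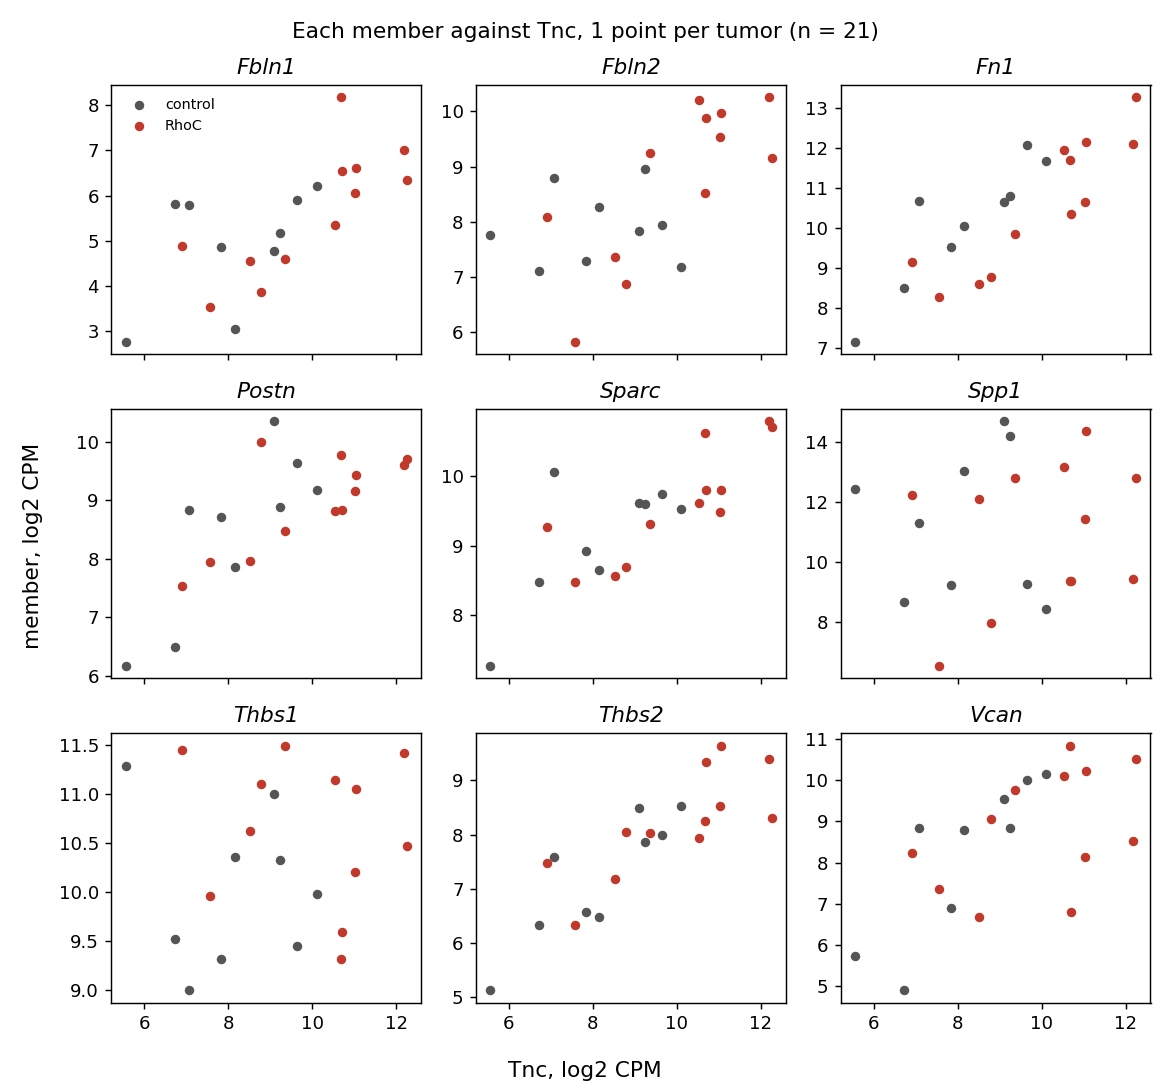
Log2 CPM of each of the other 9 members against log2 CPM of *Tnc*, with 1 point per tumor, gray for control (n = 9) and red for RhoC (n = 12). *Fn1*, *Thbs2* and *Sparc* climb with *Tnc* (Pearson r of 0.84, 0.85 and 0.79 over 21 tumors), while *Spp1* and *Thbs1* scatter (0.09 and 0.10).

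Over the 21 tumors, which share mice, Pearson r with *Tnc* was 0.85 for *Thbs2*, 0.84 for *Fn1*, 0.79 for *Sparc*, 0.74 for *Postn*, 0.69 for *Fbln1*, 0.65 for *Fbln2* and 0.62 for *Vcan*. For all genes the median r was -0.01, and 7.77% had an r over 0.5. Within controls and within RhoC tumors, r was 0.90 and 0.89 for *Fn1* and 0.87 and 0.77 for *Thbs2*. For *Fbln2* it was 0.06 in controls and 0.77 in RhoC tumors, and for *Vcan* 0.85 and 0.44, although over the 8 RhoC mice, with the tumors of a mouse averaged, *Vcan* had an r of 0.74. The difference of slopes between cohorts passed for 0 of 9 members by edgeR and 0 by DESeq2, where 0.0518% of 19314 genes passed by edgeR. At an unadjusted p under 0.05 it was 1 of 9 members, against 13.7% of all genes. *Fbln2* had the smallest p of them (difference 0.53, RhoC minus control, SE 0.25, unadjusted p = 0.0453, edgeR adjusted p = 0.357), so its cohorts are not shown to differ in this respect.

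A correlation with *Tnc* was also tested over the 17 mice, with the mean log2 CPM of a mouse's tumors and 100000 permutations of the mice. Unlike the slope it had no cohort term, so r over both cohorts also carries differences between them. Pearson r was 0.85 for *Fn1* (permutation p = 5e-05, adjusted over 19314 genes 0.0233) and Spearman rho 0.83 (permutation p = 0.00013, adjusted 0.0351). For *Thbs2* r was 0.82 (permutation p = 7e-05, adjusted 0.0233) and rho 0.85 (permutation p = 2e-05, adjusted 0.0193). *Sparc* (r = 0.78, rho = 0.72), *Vcan* (0.77 and 0.81) and *Postn* (0.75 and 0.74) also had an adjusted permutation p for r under 0.05, at 0.0319, 0.0357 and 0.0493. Thus 5 of 9 members passed, where 0.59% of all genes passed with a positive r. With library size in place of TMM, *Sparc*, *Vcan* and *Postn* had r of 0.75, 0.76 and 0.73 and adjusted permutation p of 0.0614, 0.0534 and 0.0688, and *Fn1* and *Thbs2* still passed by r. By rho under that scaling, *Thbs2* passed (adjusted permutation p = 0.0371) and *Fn1* did not (rho 0.78, adjusted permutation p = 0.0587). With TMM, the adjusted permutation p by rho was 0.0351 for *Vcan*, 0.0713 for *Sparc* and 0.0605 for *Postn*. *Fbln1* had an r of 0.64 and *Fbln2* of 0.52, with adjusted permutation p of 0.137 and 0.275, and *Spp1* and *Thbs1* had r of 0.10 and -0.03 (rho 0.09 and -0.05).

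The ends of the *Tnc* range were then left out. Without the 2 mice farthest from the median *Tnc* level, those of R-12 and N-9, r over 15 mice was 0.80 for *Thbs2*, 0.73 for *Fn1*, 0.68 for *Vcan*, 0.67 for *Postn* and 0.60 for *Sparc*. The unadjusted permutation p of these 5 members ran from 0.00053 to 0.0194, and 0 of all genes passed after adjustment. Within the 9 control mice r was 0.90 for *Fn1* (exact permutation p = 0.000664, adjusted 0.335) and 0.87 for *Thbs2* (exact permutation p = 0.00283, adjusted 0.349). Within the 8 RhoC mice it was 0.92 for *Fn1* (exact permutation p = 0.00171, adjusted 0.0996) and 0.76 for *Thbs2* (exact permutation p = 0.0295, adjusted 0.207). In neither cohort alone did any gene pass after adjustment, but the smallest p that these exact permutations can give is 2.8e-06 with 9 mice and 2.5e-05 with 8, neither of which passes over 19314 genes for a gene on its own.

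Among themselves the members that rose with *Tnc* were also correlated. Over the 21 tumors r was 0.89 between *Fn1* and *Sparc*, 0.80 between *Sparc* and *Thbs2*, 0.79 between *Fn1* and *Vcan* and 0.78 between *Postn* and *Thbs2*. *Fbln1* was closest to *Sparc* (r = 0.84). *Spp1* and *Thbs1* were nearer to each other (r = 0.48) than to *Tnc*, and *Spp1* was also correlated with *Fbln2* (r = 0.51). *Thbs1* had an r of -0.33 with *Fbln1* and 0.12 with *Thbs2*. These values describe tumors that share mice and, within a mouse, alleles and age.

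**Figure D4:**
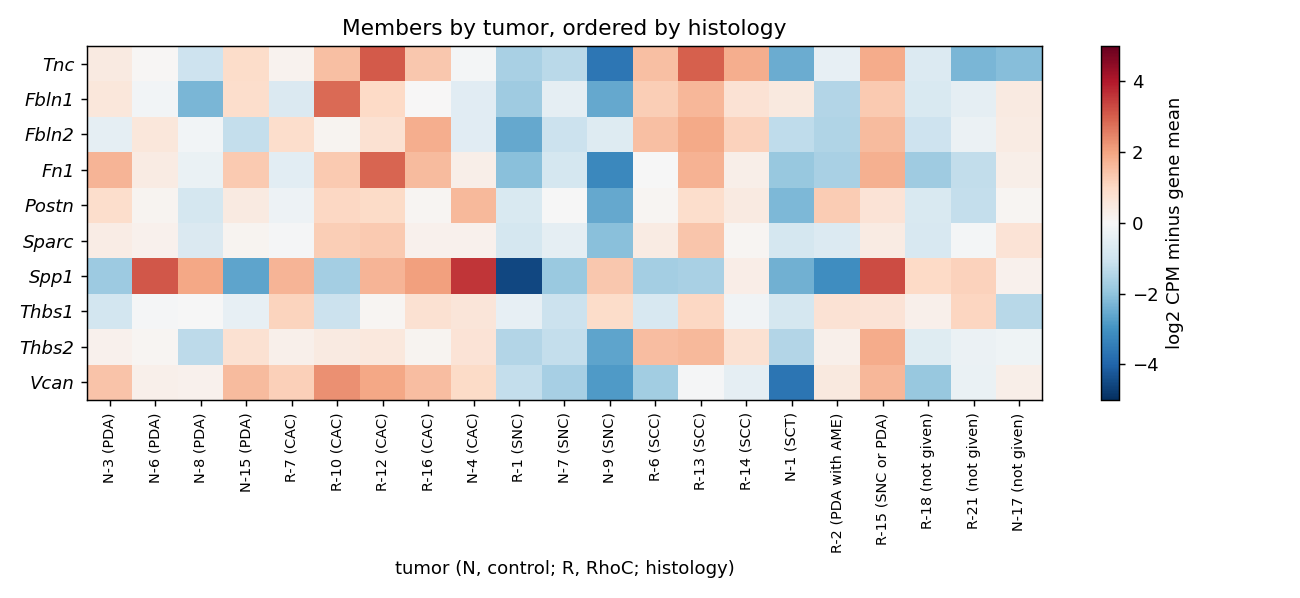
Log2 CPM of each member minus its mean over the 21 tumors, by tumor in order of histology; red is above and blue below the mean. N-9 is lowest of all tumors for 6 of 10 members. The squamous cell carcinomas (SCC) and the complex adenocarcinomas (CAC) of the RhoC cohort are all above the mean for *Tnc*, *Fbln2* and *Thbs2*.

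Histology, as the study's sample table gives it, was described without a test because the sample labels do not hold it. The 3 squamous cell carcinomas, all RhoC, held 1669, 4653 and 2085 CPM of *Tnc* in R-6, R-13 and R-14. The 4 complex adenocarcinomas of the RhoC cohort (R-7, R-10, R-12 and R-16) ranged from 659 to 4889 CPM of *Tnc*. The 4 poorly differentiated adenocarcinomas among controls ranged from 286 to 1102 CPM. Of the RhoC tumors, R-2 is given as poorly differentiated adenocarcinoma with adenomyoepithelioma and held 443 CPM, and R-15, given as solid nodular or poorly differentiated, held 2120 CPM. The tumors given as solid nodular carcinoma alone were low: 47.1 CPM in N-9, 228 in N-7 and 190 in R-1. The spindle cell tumor N-1 held 106 CPM. High *Tnc* was therefore found in both squamous and complex tumors of the RhoC cohort, and the RhoC tumors at or below 443 CPM were R-1, R-2, R-18 and R-21.

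Some members differed between the squamous and complex tumors of the RhoC cohort. *Vcan* was 112, 368 and 281 CPM in the squamous cell carcinomas and 874 to 1835 CPM in the RhoC complex adenocarcinomas, without overlap. *Thbs2* went the other way, at 370 to 675 CPM in the squamous and 245 to 316 CPM in the complex tumors, also without overlap. Thus 2 of 10 members had separate ranges here, against 17.3% of all tested genes, a share near the background. *Fbln2* was 741 to 1225 CPM in squamous and 369 to 1182 CPM in complex tumors. *Fn1* ranged from 1314 to 4380 CPM in the former and from 921 to 9888 CPM in the latter. *Spp1* was 668 to 2780 CPM in squamous and 669 to 9154 CPM in complex tumors, with overlap, and 26204 CPM in N-4, the complex adenocarcinoma among controls. R-15 held the most *Spp1* and *Thbs2* of the RhoC tumors. No histology was used for N-17, R-18 and R-21. R-13 and R-14 share mouse P497 with R-15 and the complex tumor R-16, so mouse and histology are partly mixed. Leaving out the 3 squamous cell carcinomas kept *Fn1*, *Thbs2*, *Sparc* and *Vcan* past the test on *Tnc* (edgeR adjusted p = 0.00152, 0.0239, 0.0477 and 0.0188) and left *Postn* at 0.0545, with a slope of 0.51 (SE 0.14) against 0.45 in all tumors.

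Fibroblast markers moved with these genes. The summed level of 10 fibroblast markers ranged from 309 CPM in N-9 to 7498 in N-17 in controls, median 3148, and from 1500 in R-1 to 11602 in R-13 in RhoC tumors, median 3352. This sum is mostly collagen transcript: *Col1a1*, *Col1a2* and *Col3a1* had the highest medians of the 10, at 1094, 1000 and 829 CPM in controls. In RhoC tumors they were at 1256, 1081 and 723 CPM. N-9, lowest of all tumors for the summed markers, was lowest for *Tnc*, *Fbln1*, *Fn1*, *Postn*, *Sparc* and *Thbs2*. R-13, the highest, held the second highest *Tnc*, but N-17 was near the top for the markers (rank 19 of 21 from below) and near the bottom for *Tnc* (rank 4). All 10 markers had positive slopes on *Tnc*, and 4 rose, against 3.17% of all genes: *Pdgfrb*, *Col1a1*, *Col1a2* and *Fap*. At an unadjusted edgeR p under 0.05, 7 of 10 rose, against 11% of all genes. The rest were *Dcn* (slope 0.14, SE 0.23), *Lum* (0.26, SE 0.25) and *Dpt* (0.15, SE 0.43). Between the cohorts 0 of the 10 were called by edgeR, DESeq2 or voom, and at an unadjusted p under 0.05 in edgeR there were 2 of 10 (*Dcn* and *Dpt*, both lower in RhoC tumors), a share near the 20.5% of all genes. With the mean log2 level of the markers, r over 21 tumors was 0.80 for *Sparc*, 0.80 for *Postn*, 0.70 for *Fn1*, 0.65 for *Vcan*, 0.58 for *Fbln1*, 0.57 for *Thbs2*, 0.51 for *Tnc*, 0.25 for *Fbln2*, 0.08 for *Spp1* and -0.36 for *Thbs1*. With the fibroblast markers as a further covariate, *Fn1* (slope 0.69, SE 0.11, edgeR adjusted p = 0.00538) and *Thbs2* (0.43, SE 0.10, edgeR adjusted p = 0.0207) still rose with *Tnc*, where 2.41% of all genes did. The slopes of *Sparc*, *Postn* and *Vcan* were then 0.20, 0.23 and 0.41 (edgeR adjusted p = 0.0664, 0.156 and 0.181). In bulk tumors, fewer cells of a type and less RNA per cell cannot be told apart.

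Markers of other cells also moved with members that rose with *Tnc*, again by the mean log2 level of each list. With the 8 macrophage markers, r over 21 tumors was 0.80 for *Vcan*, 0.59 for *Fn1*, 0.57 for *Postn*, 0.51 for *Sparc* and 0.38 for *Thbs2*. With the 7 smooth muscle and pericyte markers, r was 0.64 for *Postn*, 0.62 for *Fn1*, 0.61 for *Vcan*, 0.60 for *Sparc* and 0.40 for *Thbs2*. With the 7 endothelial markers it was 0.57 for *Vcan*, 0.57 for *Sparc*, 0.55 for *Postn*, 0.49 for *Fn1* and 0.20 for *Thbs2*. With 4 tested leukocyte markers it was 0.60 for *Vcan* and 0.48 for *Postn*, and with 3 tested squamous keratinocyte markers -0.56 for *Vcan*. *Tnc* itself had r of 0.27, 0.45 and 0.19 with the macrophage, smooth muscle and endothelial lists by mean log2 level, and of 0.35, 0.10 and 0.10 by the log2 of their summed levels. In controls and RhoC tumors the summed levels ranged from 149 to 973 and 293 to 1096 CPM for macrophages, from 309 to 1045 and 385 to 742 CPM for smooth muscle and pericytes, and from 144 to 811 and 142 to 524 CPM for endothelial cells, with 1 smooth muscle and pericyte marker at 0 in a tumor. *Spp1*, known as a product of macrophages, had an r of 0.21 with the macrophage markers. *Thbs1* had an r of -0.65 with 2 tested skeletal muscle markers, *Acta1* and *Mylpf*. Their medians were low, at 0.29 and 0.53 CPM in control and 0.45 and 0.30 CPM in RhoC tumors. The 7 basal epithelium markers were summed at 22030 CPM in R-6, 16400 in R-13, 7902 in R-14 and 6626 in R-12, against 735 to 4121 CPM in controls. The other 8 RhoC tumors, at 1012 to 2639 CPM, lay inside the control range, and the medians were 1601 CPM in control and 1791 CPM in RhoC tumors. *Tnc* had an r of 0.38 with their mean log2 level and 0.51 with the log2 of their sum, and with these markers as a covariate 5 members rose with *Tnc*, where 2.4% of all genes did. In the 9 marker lists other than fibroblasts, 2 of 47 tested genes rose with *Tnc*, *Actg2* of the smooth muscle list and *Krt8* of the luminal list (slopes 0.69 and 0.36), a share near the 3.17% of all genes. The difference of slopes between cohorts passed for 0 of the 47 by edgeR, but 15 had an unadjusted p under 0.05, against 13.7% of all genes. The slope was higher in RhoC tumors for 10 of these, including 5 of 7 basal and 3 of 3 squamous markers. It was lower for 5, including 3 of 8 macrophage markers. Between the cohorts 0 of the 47 were called by edgeR and 3 had an unadjusted p under 0.05, against 20.5% of all genes. DESeq2 called 3 (*Itgb4*, *Krt10* and the skeletal muscle marker *Mylpf*), against 6.24%, and voom 0. The basal marker *Itgb4* (log2 fold change 1.96, SE 0.48, edgeR adjusted p = 0.0606) and the squamous marker *Krt10* (-5.07, SE 1.10, edgeR adjusted p = 0.0536) had the smallest p. *Krt10* had medians of 0.960 CPM in control and 1.03 CPM in RhoC tumors and reached 285 CPM in a control. The part of macrophage, smooth muscle, pericyte, endothelial and skeletal muscle content in these values was not tested.

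The relatives and receptors of the members were read the same way, from lists of gene names. In 8 families of related matrix proteins, 0 of 36 tested genes were called between the cohorts by edgeR, 5 had an unadjusted p under 0.05, against 20.5% of all genes, and DESeq2 called 2 (*Acan* and *Tnr*, both higher in RhoC tumors), against 6.24%. These shares are not above the background. *Acan*, the cartilage proteoglycan, had medians of 0.127 and 0.498 CPM, was at most 0.609 CPM in controls and reached 43.3 CPM in a RhoC tumor (log2 fold change 5.93, SE 1.65, edgeR adjusted p = 0.0826). *Comp*, a cartilage thrombospondin, had medians of 1.75 and 10.7 CPM and reached 847 CPM in a RhoC tumor (log2 fold change 4.52, SE 1.64, edgeR adjusted p = 0.143). Of the CCN proteins, matricellular growth regulators, 2 of 6 rose with *Tnc*, against 3.17% of all genes: *Ccn4* (slope 0.52, SE 0.11, edgeR adjusted p = 0.00814) and *Ccn2*, known as connective tissue growth factor (0.45, SE 0.10, edgeR adjusted p = 0.0126). Of 9 other adhesive glycoproteins tested, 4 rose, against the same 3.17%, namely *Edil3* (0.97), *Tgfbi* (0.61), *Emilin2* (0.39) and *Emilin1* (0.38). In the other tenascins, fibulins, thrombospondins, SPARC family, SIBLING proteins and lecticans, 0 of 21 tested genes passed in either direction by edgeR, 3 had an unadjusted p under 0.05, against 23.8% of all genes, and DESeq2 called 4 (*Dmp1*, *Fstl1* and *Hmcn1* up, *Comp* down), against 14.8%. *Tnn*, tenascin-W, had a slope of 0.60 (SE 0.32, edgeR adjusted p = 0.265) at medians of 1.12 and 1.86 CPM, and *Tnr* was below 3 CPM in every tumor.

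Of 16 receptors, 3 rose with *Tnc*, against 3.17% of all genes. *Itga5*, the alpha chain of the fibronectin receptor, had a slope of 0.65 (SE 0.09, edgeR adjusted p = 0.00104). Its partner chain *Itgb1* had a slope of 0.31 (SE 0.08, edgeR adjusted p = 0.0285), and *Cd44*, which binds hyaluronan and osteopontin, had 0.52 (SE 0.13, edgeR adjusted p = 0.0174). *Itga9*, which with *Itgb1* forms a tenascin-C receptor, had a slope of 0.40 (SE 0.17, edgeR adjusted p = 0.160), and *Sdc1*, a syndecan, 0.70 (SE 0.21, edgeR adjusted p = 0.0501). *Itgb3* had a cohort log2 fold change of 2.19 (SE 0.75, edgeR adjusted p = 0.128) and a slope on *Tnc* of -0.49 (SE 0.21, edgeR adjusted p = 0.162), and *Itgb5* a cohort log2 fold change of 0.61 (SE 0.26, edgeR adjusted p = 0.195). The 3 TGF-beta ligands had 0 calls on *Tnc* by edgeR, 0 by DESeq2 and 0 at an unadjusted edgeR p under 0.05. Over all genes the shares were 6.94%, 14.8% and 23.8%, from which 0 of 3 cannot be told apart. *Tgfb1* had a cohort log2 fold change of 1.04 (SE 0.29, edgeR adjusted p = 0.0821), called by DESeq2.

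By pattern over the 21 tumors, genes most like *Tnc* outside the members included *Prokr2* (Pearson r = 0.91), *Timp1* (0.89), *Col8a1* (0.88), *Lgals1* (0.87), *Ptprn* (0.87), *Col6a3* (0.86), *Cnn3* (0.86), *Col5a2* (0.86) and *Tpm3* (0.86). They were ranked among tested genes with a mean log2 CPM over 0 and a named symbol. *Timp1* encodes an inhibitor of matrix metalloproteinases, *Lgals1* a secreted galectin, and *Col8a1*, *Col6a3* and *Col5a2* are collagen chains. Among all 19314 genes, *Thbs2* ranked 14th, *Fn1* 17th and *Sparc* 55th by r, whereas *Thbs1* ranked 7723rd and *Spp1* 7816th.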

How the data were processed

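The authors deposited raw counts per gene for each of 21 tumors, 1 library per tumor, from a stranded Ribo-Zero Plus total RNA kit. Per the study's methods and processing notes, reads were trimmed (Trim Galore 0.5.0), aligned with STAR 2.6.0c to GRCm38.p6 and counted with htseq-count 0.6.1p2, keeping uniquely mapped reads on 1 gene. The strand setting and annotation release are not given in the sources used here. The deposited table also holds FPKM per tumor, scaled by the authors and used only to order members per length, and the authors' own comparison columns (fold changes and p-values), which were not used. All FPKM columns were matched to tumors.

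Groups come from the sample labels, and histology from the study's sample table. That table lists the mouse of R-21 for another RhoC tumor, so which of these R-21 is remains unsettled.

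Counts were analysed in R 4.3.3 with edgeR 4.0.16: filterByExpr, TMM and the quasi-likelihood test (glmQLFit, glmQLFTest), without covariates for the cohorts and with cohort for slopes on *Tnc* (log2 CPM, prior count 2). A gene passed if its p, adjusted by Benjamini-Hochberg over all tested genes, was under 0.05. The SE is the log2 change over the square root of F, and intervals are 95%, at 1.96 SE. Correlations over mice used 2-sided permutation without a cohort term, with numpy 2.4.6. Alternatives were DESeq2 1.42.0, voom (limma 3.58.1) with mouse as a random effect, counts summed per mouse, library size scaling, no low-count filter, marker covariates, and tumors left out. The steps were tested on simulated data.

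Reads shared with overlapping genes can blur a member's count. The largest case was *Vcan*, whose antisense neighbour *Gm4117* held 1.74% as many reads.

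The members and lists were chosen with earlier results of these data known. The rule for named genes takes the members, *Rhoc*, the 10 genes with the highest r to *Tnc* (1 of which is not reported here), and from each list genes called or with the 2 smallest p. Of the last, not all uncalled genes are named, and those lists are given by counts. Other genes, such as *Itga9* and *Sdc1*, were named after their values were seen.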

Additional observations from a re-analysis of the deposited data

How the results depend on the processing

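Between the cohorts, 0 members were called by edgeR and voom under each alternative run, and 1 (*Tnc*) by DESeq2. Leaving out each tumor in turn gave 0 to 0 members called. For the slope on *Tnc*, 5 members were called, against 3 with counts summed per mouse, 2 with the fibroblast marker term and 2 without the 4 tumors of mouse P497, and 3 to 6 with each tumor left out in turn. DESeq2 and the fit on *Tnc* alone gave 7, where 7.02% and 3.87% of all genes rose, and the other alternatives 4 or 5. The difference of slopes had 0 members called under DESeq2 and summed counts, and from 0 to 0 with each tumor left out, an alternative chosen after seeing the data. Over mice, 5 members were called, against 2 with library size in place of TMM, 0 without the 2 mice farthest from the median *Tnc* level, 0 within controls and 0 within RhoC mice, where so few mice hardly allow a call. Over all genes, 43 were called between cohorts, against 3 with voom, summed counts or without P497, 14 to 346 with a tumor left out (N-9 and N-15), 438 with only Gata4 loxP/+ controls and 1206 with DESeq2. For the slope the count was 1340, against 236 without P497, 376 with summed counts and 2859 with DESeq2. For the difference of slopes it was 10, against 2 with summed counts and 881 with DESeq2. Over mice it was 232, against 134 with library size scaling. What moved these counts was not tested. No paired analysis was possible because the tumor numbers are identifiers given within each cohort to different mice.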
